A study of Mus musculus with 48 samples.

Results

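The subject is the daily rhythm of gene expression in the mouse prefrontal cortex (PFC), the front part of the cerebral cortex, measured on the 12 PFC arrays of a study of 48 arrays. The 12 were taken by their tissue label. Sampling times are given as Zeitgeber time (ZT), which counts hours from the start of the light phase. ZT3, ZT7 and ZT11 are light-phase times and ZT15, ZT19 and ZT23 dark-phase times, with 2 arrays at each. All mice were male C57BL/6 animals on a cycle of 12 h light and 12 h dark, with no treatment named in the labels, and each array carried total RNA pooled from 3 mice killed at the same time. Replicate 1 came from the first 24-h cycle of sampling (from hour 11) and replicate 2 from the second (to hour 55), so that differences between replicates include any difference between days. The other 36 arrays hold the midbrain dopamine region (SN/VTA, for substantia nigra and ventral tegmental area), the striatum (STR) and the habenula (HAB) of such mice, 12 arrays each. The labels give no age, and do not say whether the tissues came from the same mice.

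Nearly every mammalian cell holds a circadian clock. The proteins CLOCK and BMAL1 (gene Arntl) bind E-box sequences and switch on the Per, Cry and Nr1d genes. PER and CRY proteins then shut off this activation, and the REV-ERB receptors encoded by Nr1d1 and Nr1d2 repress Arntl, which puts Arntl out of step with its targets. In the cortex, genes also follow the sleep and wake cycle, since neuronal activity, feeding, hormones and temperature change with it, and mice are mostly awake in the dark.

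The tissue label was borne out by the cortical markers Fezf2 and Tbr1, while some other markers overlapped between tissues. Fezf2, a transcription factor of deep-layer cortical projection neurons, ranged from 9.11 to 9.50 on the log2 scale in the 12 PFC arrays and from 5.14 to 7.40 in the other 36. Tbr1, of the same neuron class, ranged from 8.20 to 8.97 in PFC and from 4.33 to 7.26 elsewhere. The cortical genes Neurod6 (8.72 to 9.20 in PFC, 4.41 to 8.96 elsewhere) and Neurod2 (9.17 to 9.65 and 6.86 to 9.73) overlapped. The striatal markers Drd1 and Rgs9 had PFC medians of 6.87 and 8.71, above those of the other arrays (5.63 and 8.15). Ttr, the marker of choroid plexus, ranged from 6.93 to 8.14 in PFC and from 7.13 to 13.14 elsewhere, and the striatal receptor gene Drd2 from 6.64 to 7.98 in PFC and from 7.16 to 11.72 elsewhere. Medians of the PFC arrays lay between 5.96 and 6.01, and pairs of the same time correlated across genes with r from 0.988 to 0.992 (median 0.9904), against 0.987 to 0.992 (median 0.9897) for pairs of different times within a cycle.

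A split among these arrays is given before the results. Some rows split the 12 arrays by time of day in a single step, with the 6 arrays of ZT11, ZT15 and ZT19 on one side and the 6 of ZT23, ZT3 and ZT7 on the other, in both cycles. The row with the smallest p for this step, unnamed here, ranged from 9.89 to 10.62 at ZT11 to ZT19 and from 3.59 to 4.53 at ZT23 to ZT7. In the other tissues the same sets of times overlapped in this row (4.02 to 6.46 and 4.85 to 6.47 in SN/VTA, 6.48 to 8.72 and 6.60 to 8.24 in STR, 6.87 to 9.51 and 7.32 to 8.95 in HAB). Over all 28941 rows above the filter on low values, limma found a step in 109 at an adjusted p under 0.05, and 57 of the 59 steps of over 1 log2 unit were higher at ZT11 to ZT19. Among the 17274 named genes tested, 17 (0.0984%) had such a step. A step between arrays of ZT11 to ZT19 and the others cannot be told apart from time of day in this design, so results are also given with the step as an added term, an alternative chosen after seeing the data. The step runs nearly along a 24-h curve peaking at ZT15 or ZT3, so the added term leaves little of such a curve to test. Whether a gene keeps a small p with the term thus depends in part on its peak time.

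A rhythm was defined by limma's F test of a 24-h cosine curve (both its terms together), with the replicate number as a block and Benjamini-Hochberg adjustment over all genes tested. Amplitudes are log2 differences between the peak of the fitted curve and its mean, with the standard error (SE) over the 12 arrays, and folds run from trough to peak. The p-values rest on the spread of the arrays about the fitted curve. That spread holds differences between pools, days and arrays and any departure from the curve. In PFC, 20 of 17274 genes (0.116%) had a rhythm at an adjusted p under 0.05, with amplitudes from 0.26 to 1.86 and a median of 0.32, against a median of 0.078 over all genes tested. By peak time, 3 of the 20 peaked between ZT23 and ZT5, 5 between ZT5 and ZT11, 10 between ZT11 and ZT17, and 2 between ZT17 and ZT23. Of the 20, 7 belong to the core clock list and 13 do not, and 13 peaked in the dark phase. At an unadjusted p under 0.05 there were 1968 genes (11.4%), with shares of 2.33% peaking from ZT23 to ZT5, 2.94% from ZT5 to ZT11, 3.68% from ZT11 to ZT17 and 2.44% from ZT17 to ZT23, or 5.93% in the dark as a whole. With an intensity trend in limma's prior and robust fitting the count at an adjusted p under 0.05 was 202 (1.17%), and with the step as a term it was 3 (0.0174%). All 20 genes were among the 202. Leaving out each of the 12 arrays in turn gave from 6 to 15 genes (15 without the ZT3 array of replicate 1, at most 12 without any other), and Dbp, Nr1d1, Ciart, Fabp7 and Mir101c were called in all 12 of these fits.

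**Figure D1:**
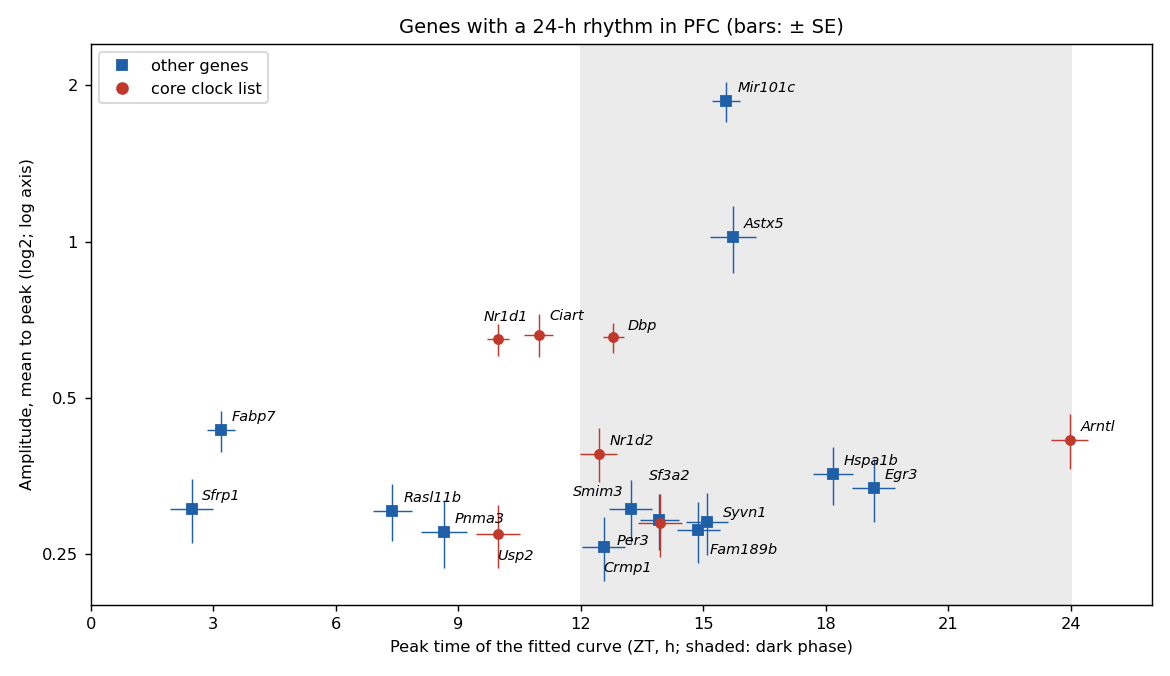
Fitted amplitude (log2, log axis) against peak time (ZT, h) of the 20 genes with a 24-h rhythm in PFC, squares for genes outside the core clock list and circles for clock genes, bars ± SE and the dark phase shaded. Of the genes 10 lie between ZT11 and ZT17, and Mir101c (1.86) and Astx5 (1.02) stand above the rest.

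The rhythms kept their timing between the days. For 11 of the 20 genes all 12 arrays lay on the side of the cycle mean that the fitted curve gives, for 5 it was 11 arrays, and the lowest number was 10. Fitted in each cycle alone, the peak moved between cycles by a median of 0.789 h and by at most 1.90 h. The same calls set these genes apart, so these values describe them and test nothing.

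**Figure D2:**
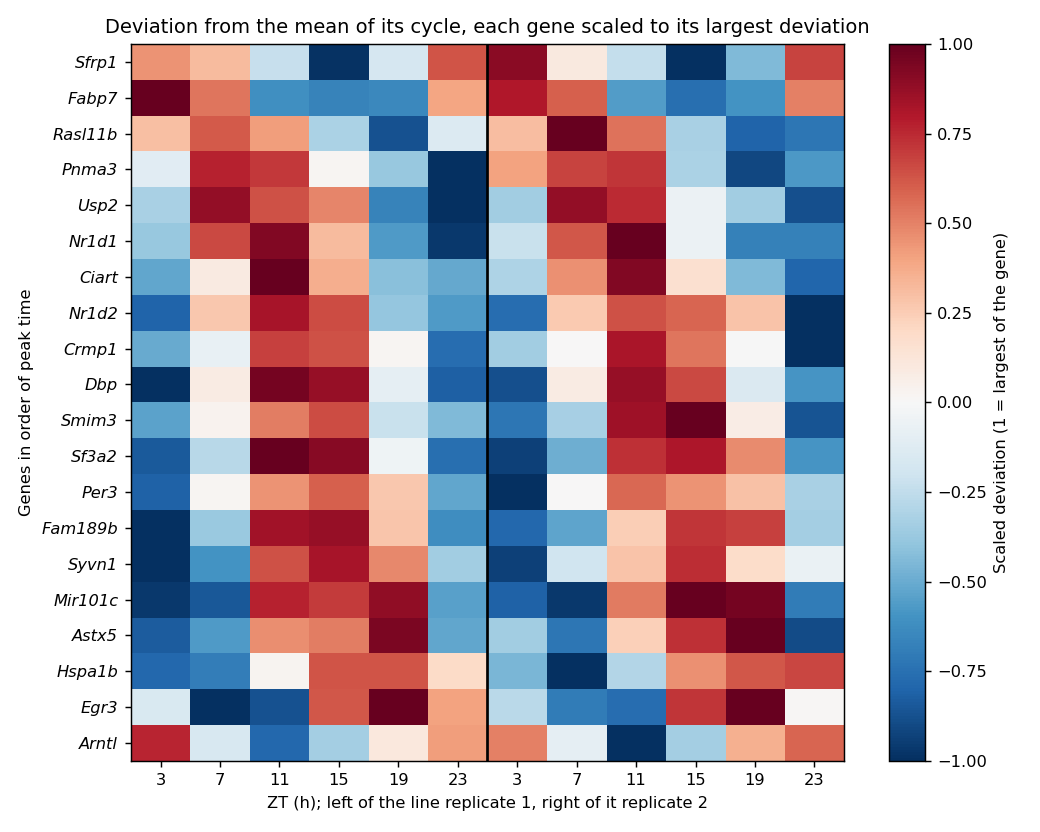
Each of the 12 PFC arrays (columns, by ZT in replicate 1 left of the line and replicate 2 right of it) as the deviation from the gene's mean in that cycle, scaled to the gene's largest deviation, for the 20 rhythmic genes in order of peak time. The red band of high values moves to later times down the rows in both cycles.

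Among the clock genes, Dbp and Nr1d1 had the smallest p of all genes tested. Dbp, which encodes a D-box binding activator driven by the clock, measured 8.80, 9.54, 10.13, 10.07, 9.42 and 8.92 in the first cycle and 8.88, 9.53, 10.07, 9.92, 9.38 and 9.07 in the second at ZT3, ZT7, ZT11, ZT15, ZT19 and ZT23. It was highest at ZT11 and ZT15 and lowest at ZT3 and ZT23 in both cycles, with no overlap between those pairs of times. Its amplitude was 0.65 ± 0.04 (2.48-fold from trough to peak, adjusted p = 1.26e-04), with the peak at ZT12.8. Nr1d1 peaked at ZT9.97 with an amplitude of 0.65 ± 0.05 (2.46-fold, adjusted p = 1.54e-04), and Ciart, a repressor of CLOCK and BMAL1, at ZT11.0 with 0.66 ± 0.06 (2.50-fold, adjusted p = 0.00176). These 3 were the genes still called with the step as a term.

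Arntl ran opposite to them. Its levels from ZT3 to ZT23 were 9.47, 8.93, 8.56, 8.82, 9.08 and 9.27 in the first cycle and 9.33, 8.98, 8.45, 8.83, 9.24 and 9.37 in the second, lowest at ZT11 in both cycles. The fitted peak lay at ZT24.0 with an amplitude of 0.42 ± 0.05 (adjusted p = 0.0173). Usp2, a deubiquitinase under clock control, peaked at ZT9.96 (0.27), Nr1d2 at ZT12.4 (0.39) and Per3 at ZT13.9 (0.29), with adjusted p-values of 0.0337, 0.0152 and 0.0337. Of the 21 clock genes tested 7 were called and 15 (71.4%) had an unadjusted p under 0.05, against 11.4% of all genes. Bhlhe41 (amplitude 0.39), Per1 (0.31), Tef (0.29), Bhlhe40 (0.29) and Cry1 (0.19) had adjusted p-values of 0.124, 0.239, 0.212, 0.169 and 0.180 and did not pass. Clock and Npas2, partners of BMAL1, had amplitudes of 0.10 and 0.029, and the receptor genes Rora and Rorb 0.033 and 0.17, all with adjusted p-values of 0.373 or more. The amplitudes of Cry2, Nfil3, Fbxl21, Csnk1e and Hlf lay between 0.052 and 0.17, and none was called.

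The first 2 sequences below show the clock's binding letters in promoters of called clock genes. Sequences are from RefSeq, build GRCm38.p6, given from 5′ to 3′ on the gene's strand and ending before the start site, with motif letters in capitals, and 13374 of the 17274 genes tested have a promoter there. The E-box CACGTG was found in 10.6% of the promoters, in a window from 250 bases before to 50 after the start site, and in 5 of 20 clock promoters, among which only that of Ciart belongs to a called gene. The D-box TTATGTAA was found in 0.778% of promoters and, among the 7 called clock genes, in that of Per3. Both strands were searched, and no other searched motif overlaps those shown.
Ciart (chr3:95882229-95882384, minus strand): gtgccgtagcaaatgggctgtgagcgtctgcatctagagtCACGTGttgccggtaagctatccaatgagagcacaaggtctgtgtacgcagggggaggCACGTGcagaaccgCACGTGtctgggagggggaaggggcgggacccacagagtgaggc
Per3 (chr4:151044776-151044910, minus strand): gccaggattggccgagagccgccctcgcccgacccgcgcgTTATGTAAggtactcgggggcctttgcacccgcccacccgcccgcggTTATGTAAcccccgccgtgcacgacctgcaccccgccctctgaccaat
Ciart holds the E-box 3 times in the stretch shown and Per3 the D-box 2 times. The levels of Per3 from ZT3 to ZT23 were 7.59, 7.93, 8.11, 8.17, 8.03 and 7.71 in the first cycle and 7.53, 7.94, 8.18, 8.13, 8.06 and 7.81 in the second. Its lowest arrays were those of ZT3 and ZT23 in both cycles.

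Around the start of the light phase, the gene with the strongest rhythm outside the clock was Fabp7, the brain fatty acid-binding protein of astrocytes and neural progenitors. Its levels from ZT3 to ZT23 were 9.56, 9.34, 8.80, 8.77, 8.78 and 9.28 in the first cycle and 9.50, 9.40, 8.85, 8.75, 8.83 and 9.35 in the second. Every array of ZT23, ZT3 and ZT7 lay above every array of ZT11, ZT15 and ZT19. The amplitude was 0.43 ± 0.04 (1.82-fold, adjusted p = 0.00133) with the peak at ZT3.19, and the fitted peaks of the 2 cycles lay within 0.036 h of each other. With the step as a term the amplitude was 0.24 and the unadjusted p 0.114. The times at which Fabp7 is high are those on the low side of the step. In the other tissues Fabp7 had fitted amplitudes of 0.29 in SN/VTA, 0.32 in STR and 0.39 in HAB with peaks at ZT3.54, ZT3.14 and ZT3.06, and the difference of PFC from their mean had an unadjusted p of 0.167.

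The astrocyte list as a whole varied less than Fabp7. Of its 12 genes tested, Fabp7 was called and 3 (25%) had an unadjusted p under 0.05, against 11.4% of all genes. The median amplitude was 0.061. Gfap, the intermediate filament of astrocytes, had an amplitude of 0.26 with the peak at ZT6.29, and Aldh1l1, a folate enzyme, 0.14 at ZT10.3, with adjusted p-values of 0.314 and 0.386. The mean level of the 12 genes ranged from 8.47 to 8.60 over the arrays. In bulk tissue, fewer cells of a type and less RNA per cell cannot be told apart.

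REV-ERB and ROR receptors bind the core letters TAGGTCA. These were found in 2.47% of promoters and, among the 16 called genes with a promoter, in those of Arntl, where they lie after the start site, and Fabp7. In Fabp7 they lie on the reverse strand, so the capitals below are the reverse complement.
Fabp7 (chr10:57784712-57784798, plus strand): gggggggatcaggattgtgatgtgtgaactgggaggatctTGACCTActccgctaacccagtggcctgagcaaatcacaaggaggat
This is a match of letters in a window, and binding was not measured.

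Sfrp1, a secreted antagonist of Wnt signals, peaked at ZT2.47 with an amplitude of 0.31 ± 0.04 (1.53-fold, adjusted p = 0.0337). Its levels from ZT3 to ZT23 were 7.26, 7.21, 7.0, 6.71, 7.03 and 7.34 in the first cycle and 7.47, 7.16, 7.03, 6.74, 6.95 and 7.38 in the second. Arrays of ZT3 and ZT23 were the highest and those of ZT15 the lowest in both cycles. With the step as a term its amplitude was 0.38 and it was no longer called (unadjusted p = 0.0366, adjusted p = 0.575). With Arntl, Fabp7 and Sfrp1 make up the called genes of the window from ZT23 to ZT5.

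**Figure D3:**
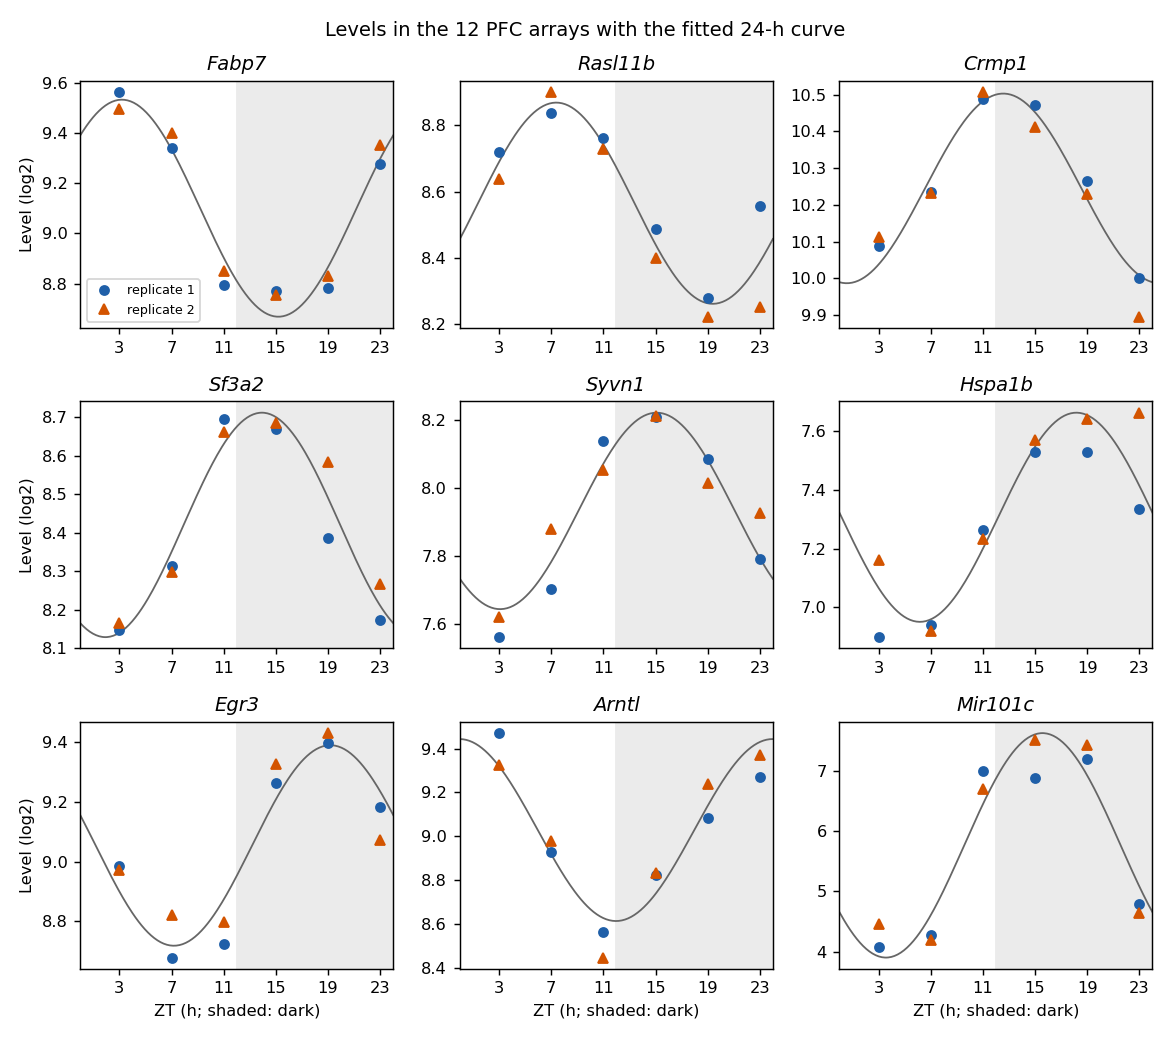
Levels (log2) of 9 genes in the 12 PFC arrays by ZT (h), circles for replicate 1 and triangles for replicate 2, with the fitted 24-h curve and the dark phase shaded. Fabp7 and Arntl are high at ZT23 and ZT3, Rasl11b at ZT7, Crmp1, Sf3a2 and Syvn1 between ZT11 and ZT15, Hspa1b from ZT15 to ZT23, Egr3 at ZT15 and ZT19, and Mir101c falls into a high and a low set of 6 arrays.

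In the middle of the light phase 2 genes outside the clock list were called. Rasl11b, a small GTPase of the Ras-like family, measured 8.72, 8.84, 8.76, 8.49, 8.28 and 8.56 in the first cycle and 8.64, 8.90, 8.73, 8.40, 8.22 and 8.25 in the second from ZT3 to ZT23. It was highest at ZT7 and lowest at ZT19 in both cycles. The amplitude was 0.30 ± 0.04 (1.52-fold, adjusted p = 0.0187), the peak lay at ZT7.39, and the step as a term left the amplitude at 0.29 (unadjusted p = 5.21e-05). Pnma3, of a family of genes derived from retrotransposon Gag sequences, peaked at ZT8.65 with 0.28 ± 0.04 (adjusted p = 0.0491), though its peak moved by 1.90 h between the cycles.

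Cold-inducible RNA-binding protein genes lay in the same window, though none passed over all genes. Cirbp, whose RNA rises when body temperature drops, measured 7.0, 7.46, 7.18, 7.0, 6.74 and 7.07 in the first cycle and 7.09, 7.54, 7.19, 6.78, 6.85 and 6.84 in the second, highest at ZT7 in both cycles. Its fitted amplitude was 0.30 ± 0.05 with the peak at ZT7.27 (unadjusted p = 4.56e-04, adjusted p = 0.119). Srsf5, a splicing factor on the same list, had 0.14 ± 0.04 at ZT5.80 (adjusted p = 0.314). The third gene of the list shares its row with other symbols and was not analysed here. Cholesterol synthesis had 3 of 19 genes with an unadjusted p under 0.05 (15.8%, against 11.4% of all genes). These were Insig1, Msmo1 and Sqle, all with fitted peaks in the light (ZT6.94, ZT6.57 and ZT4.94) and none called. Of all 17274 genes tested, 943 had such a p and a fitted peak in the light. Insig1, which holds back the cholesterol sensor in the endoplasmic reticulum (ER), had an amplitude of 0.23 ± 0.05 (adjusted p = 0.170).

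The fullest window, from ZT11 to ZT17, held 10 genes, of which 7 are not on the clock list: Crmp1, Smim3, Sf3a2, Fam189b, Syvn1, Mir101c and Astx5. Sf3a2, a subunit of the U2 snRNP that recognises the branch point in splicing, measured 8.15, 8.31, 8.70, 8.67, 8.39 and 8.17 in the first cycle and 8.17, 8.30, 8.66, 8.68, 8.58 and 8.27 in the second from ZT3 to ZT23. Its 4 arrays of ZT11 and ZT15 were above all others, and the arrays of ZT3 were the lowest of each cycle. The 6 arrays of ZT11 to ZT19 (8.39 or more) lay above the 6 of ZT23 to ZT7 (8.31 or less), the same split as the step. The amplitude was 0.29 ± 0.04 (1.497-fold, adjusted p = 0.0187) with the peak at ZT13.9. With the step as a term the amplitude was 0.22 and it was no longer called (unadjusted p = 0.0446, adjusted p = 0.592). Splicing factors as a list stood near the background: of 40 tested, Sf3a2 was called and 5 (12.5%) had an unadjusted p under 0.05, close to the 11.4% of all genes, with a median amplitude of 0.064.

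Syvn1 encodes HRD1, the ubiquitin ligase that marks misfolded proteins of the ER for degradation. It measured 7.56, 7.71, 8.14, 8.21, 8.09 and 7.79 in the first cycle and 7.62, 7.88, 8.05, 8.21, 8.01 and 7.93 in the second, highest at ZT15 and lowest at ZT3 in both cycles. The amplitude was 0.29 ± 0.04 (1.49-fold, adjusted p = 0.0325) with the peak at ZT15.1. With the step as a term the amplitude was 0.37 (unadjusted p = 0.0292). Of 21 genes of the unfolded protein response and ER degradation, Syvn1 was called. An unadjusted p under 0.05 was found for 3 (14.3%, against 11.4% of all genes). The other 2 were Derl3 (0.28 ± 0.06, peak ZT14.2, adjusted p = 0.225), a partner of HRD1 in that degradation, and the stress kinase gene Eif2ak3 (0.12, adjusted p = 0.395).

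Crmp1, a cytoskeletal protein of axon guidance by semaphorins, measured 10.09, 10.23, 10.49, 10.47, 10.27 and 10.001 in the first cycle and 10.11, 10.23, 10.51, 10.41, 10.23 and 9.89 in the second. ZT11 and ZT15 were highest and ZT23 lowest in both cycles. The amplitude was 0.26 ± 0.04 (1.43-fold, adjusted p = 0.0337), the smallest among the called genes, and it was 0.17 with the step as a term. Fam189b, a membrane protein gene, peaked at ZT14.9 with 0.28 ± 0.04 (adjusted p = 0.0325, and an unadjusted p of 0.201 with the step as a term). Smim3, a small membrane protein gene, peaked at ZT13.2 with 0.31 ± 0.04 (adjusted p = 0.0325).

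Mir101c and Astx5 had the largest amplitudes and followed the step. Mir101c measured 4.08, 4.28, 7.0, 6.89, 7.20 and 4.79 in the first cycle and 4.47, 4.20, 6.70, 7.51, 7.44 and 4.65 in the second, so that the 6 arrays of ZT11 to ZT19 (6.70 to 7.51) and the 6 of ZT23 to ZT7 (4.08 to 4.79) did not overlap. The fitted amplitude was 1.86 ± 0.17 (adjusted p = 0.00133), and 0.42 with the step as a term. No fold is given for it, since its 6 low arrays lie under 5.05, the level of the filter on low values, and a cosine spans more than the step of 2.71 log2 units between the sets of arrays. Astx5, of a multi-copy family on the X chromosome known from spermatogenesis, had an amplitude of 1.02 ± 0.15 (adjusted p = 0.0499). It measured 5.83 to 6.74 at ZT11 to ZT19 and 4.40 to 5.14, around the filter level, at the other times. With the step as a term its amplitude was 0.24 with the fitted peak turned to the other side of the day. Srsy, a multi-copy gene on the Y chromosome, lay just outside the threshold (0.69, adjusted p = 0.0561). The signal of such families cannot be assigned to a single copy, and the array does not measure mature miRNA apart from its precursor. The mature miR-101c, with the seed in capitals, is listed by RefSeq at chr9:3038680-3038698 on the minus strand.
mmu-miR-101c: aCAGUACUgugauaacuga

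Between ZT17 and ZT23 the called genes were Hspa1b and Egr3, and the fitted peaks of many immediate early genes and ER chaperones lay around theirs. Hspa1b, the stress-inducible chaperone HSP70, measured 6.90, 6.94, 7.26, 7.53, 7.53 and 7.34 in the first cycle and 7.16, 6.92, 7.23, 7.57, 7.64 and 7.66 in the second from ZT3 to ZT23. All 6 dark arrays were above all 6 light arrays. The amplitude was 0.36 ± 0.05 (1.64-fold, adjusted p = 0.0230) with the peak at ZT18.2, and 0.41 with the step as a term. Its near-identical neighbour Hspa1a, whose signal may be shared, had 0.17 at ZT18.5 (adjusted p = 0.475). Chordc1, a co-chaperone of HSP90, had 0.30 ± 0.05 at ZT19.6 (adjusted p = 0.0972). Of 19 cytosolic heat shock genes 1 was called and 3 (15.8%) had an unadjusted p under 0.05, against 11.4% of all genes. The constitutive Hspa8 had an amplitude of 0.055. The heat shock element was found in 0.568% of all promoters and in 4 of 16 on this list, those of Chordc1, Hspd1, Hspe1 and Hsph1.

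Immediate early genes are switched on within minutes of synaptic activity. Egr3, a transcription factor of this class, measured 8.98, 8.68, 8.72, 9.26, 9.40 and 9.18 in the first cycle and 8.97, 8.82, 8.80, 9.33, 9.43 and 9.07 in the second. Its arrays of ZT15 and ZT19 were above all others in both cycles, and ZT7 and ZT11 held the lowest. The amplitude was 0.34 ± 0.05 (1.59-fold, adjusted p = 0.0337) with the peak at ZT19.2. Of 22 genes of the list tested 1 was called and 12 (54.5%) had an unadjusted p under 0.05, against 11.4% of all genes. Of the 12, 3 had a fitted peak between ZT11 and ZT17 and 9 between ZT17 and ZT23, windows in which 3.68% and 2.44% of all genes had such a p. The median amplitude of the 22 was 0.20.

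Within this class the shapes differed. Egr1 missed the threshold narrowly (amplitude 0.50 ± 0.07, adjusted p = 0.0508) and peaked at ZT16.3. Its levels were 8.48, 8.47, 9.03, 9.62, 9.24 and 9.06 in the first cycle and 8.54, 8.50, 9.43, 9.40, 9.13 and 9.17 in the second, so that it was high already at ZT11, while Egr3 was low there. Arc, which acts at active synapses in receptor uptake, measured 9.10, 9.0, 9.73, 10.18, 9.87 and 10.33 in the first cycle and 9.44, 9.28, 10.17, 10.29, 9.65 and 10.45 in the second, with a dip at ZT19 between higher arrays in both cycles. Its amplitude was 0.47 ± 0.14 (adjusted p = 0.334). The departure of Arc from a cosine had an unadjusted p of 1.94e-04, the smallest of all genes, and no gene passed that test after adjustment (0 of 17274, 0%, with 4.5% at an unadjusted p under 0.05). Nptx2, a secreted organiser of excitatory synapses, had the latest fitted peak of the 12 (ZT22.8, amplitude 0.30 ± 0.06, adjusted p = 0.116), with its lowest arrays at ZT11 in both cycles. Jun (0.31), Homer1 (0.33), Nr4a1 (0.38), Egr2 (0.25), Fosb (0.20), Fosl2 (0.19), Ier5 (0.24) and Nr4a3 (0.18) made up the rest, with adjusted p-values from 0.239 to 0.428. Fos itself had an amplitude of 0.28 (adjusted p = 0.460). With the step as a term 9 of the 22 had an unadjusted p under 0.05, against 8.31% of all genes.

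ER chaperones fold proteins bound for membranes and secretion. None of the 19 tested was called, and 10 (52.6%) had an unadjusted p under 0.05, against 11.4% of all genes. The median amplitude over the 19 was 0.12. Of the 10, 9 peaked in the dark between ZT17.3 and ZT22.0: Ero1a, Dnajc3, Hspa5, Creld2, Pdia6, Sdf2l1, Dnajb11, Manf and Calr. In the window from ZT17 to ZT23, 2.44% of all genes had such a p. Hspa5, the ER's main chaperone BiP, measured 8.88, 8.76, 8.93, 9.14, 9.21 and 9.09 in the first cycle and 8.90, 8.71, 9.08, 9.21, 9.10 and 9.20 in the second from ZT3 to ZT23, lowest at ZT7 in both cycles. Its amplitude was 0.21 ± 0.04 with the peak at ZT18.3 (unadjusted p = 7.37e-04, adjusted p = 0.131). Pdia6, a disulfide isomerase, had 0.22 ± 0.04 at ZT18.3 (adjusted p = 0.131), and Creld2, also a disulfide isomerase, 0.17 ± 0.05 at ZT18.3 (adjusted p = 0.293). Fkbp2 went the other way, with 0.22 ± 0.04 at ZT2.79 (adjusted p = 0.124). The mean level of the list ran from 8.90 to 9.13 over the arrays. With the step as a term 9 of the 19 had an unadjusted p under 0.05, against 8.31% of all genes.

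Many of these genes carry the ER stress response element, CCAAT and CCACG with 9 bases between, which the stress sensor ATF6 binds together with NF-Y. It was found in 20 of 13374 promoters (0.15%), among them 8 of 16 on the ER chaperone list and that of Syvn1. Of these promoters 6 are shown because their genes are Syvn1, which was called, and the 5 chaperones with both the element and an unadjusted p under 0.05. In Creld2 and Calr it lies on the reverse strand.
Syvn1 (chr19:6046492-6046575, plus strand): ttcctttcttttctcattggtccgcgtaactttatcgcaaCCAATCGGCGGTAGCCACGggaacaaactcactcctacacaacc
Hspa5 (chr2:34771985-34772083, plus strand): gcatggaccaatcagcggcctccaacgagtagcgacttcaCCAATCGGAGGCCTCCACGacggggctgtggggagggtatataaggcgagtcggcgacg
Pdia6 (chr12:17266451-17266549, plus strand): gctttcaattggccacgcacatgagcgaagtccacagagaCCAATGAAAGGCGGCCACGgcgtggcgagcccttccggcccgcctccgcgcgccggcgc
Creld2 (chr15:88819480-88819578, plus strand): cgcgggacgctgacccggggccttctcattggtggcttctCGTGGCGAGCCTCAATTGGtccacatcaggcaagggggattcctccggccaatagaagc
Dnajc3 (chr14:118937787-118937885, plus strand): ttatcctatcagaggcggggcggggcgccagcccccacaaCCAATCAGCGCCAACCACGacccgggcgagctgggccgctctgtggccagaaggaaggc
Calr (chr8:84847035-84847133, minus strand): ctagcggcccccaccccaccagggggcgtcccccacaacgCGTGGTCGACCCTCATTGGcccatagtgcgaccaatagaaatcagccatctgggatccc
Among chaperones with a promoter, those with and without the element had similar counts. Of 8 with it 5 had an unadjusted p under 0.05, and of 8 without it 4. Hsp90b1, Ero1b and Canx hold it and had unadjusted p-values of 0.0646, 0.181 and 0.328. The fitted peak of Syvn1 lay at ZT15.1 ± 0.52 h (SE) and that of Hspa5 at ZT18.3 ± 0.74 h. The difference between these peaks was not tested.

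**Figure D4:**
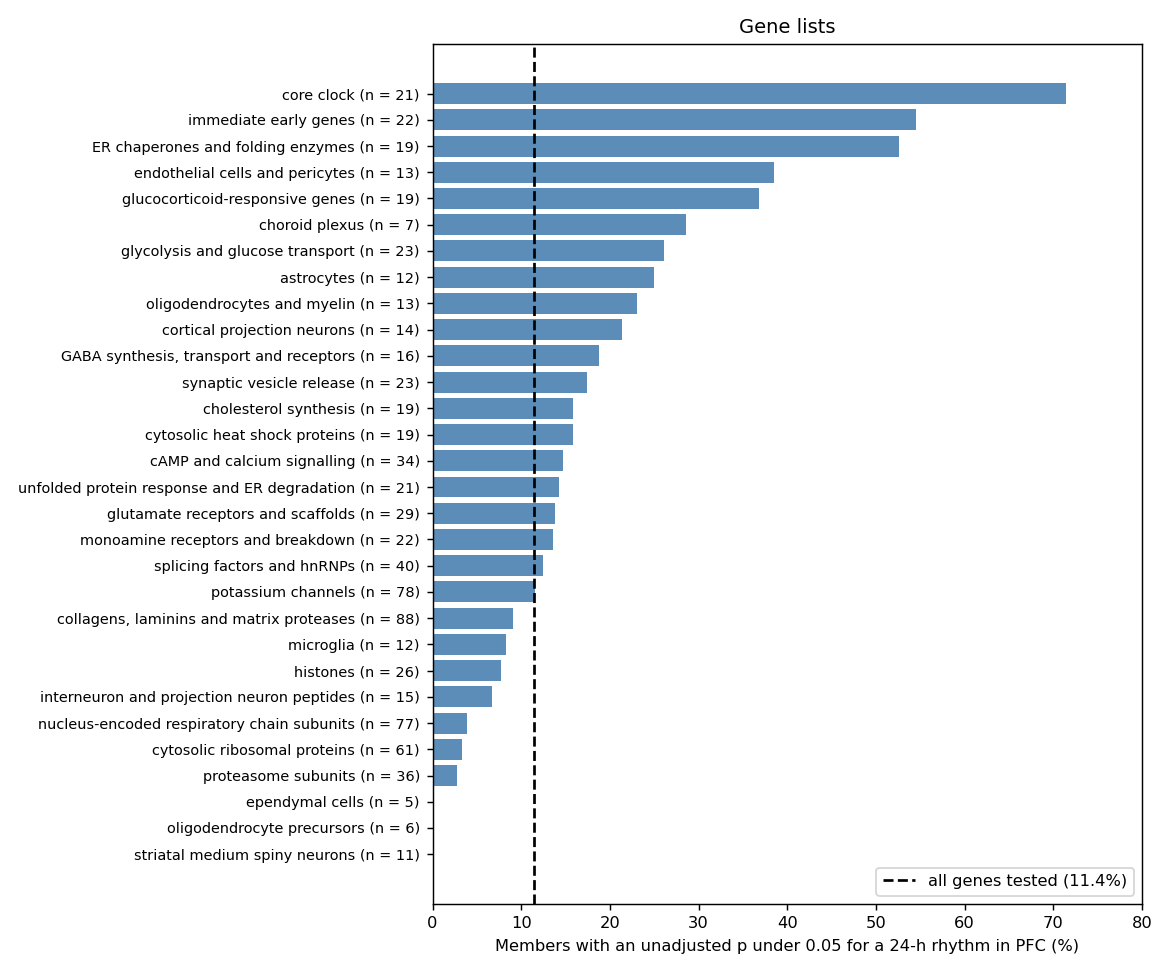
Share of the genes of each list with an unadjusted p under 0.05 for a 24-h rhythm in PFC (%), for lists with at least 5 genes tested (n in brackets), the dashed line at the 11.4% of all genes tested. Core clock (71.4%), immediate early genes (54.5%) and ER chaperones (52.6%) stand highest, and respiratory chain, ribosomal and proteasome genes lie below the line.

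Among lists with at least 5 genes tested the others had smaller shares, and 6 of the 32 lists held a called gene. The share over all genes was 11.4%, with 5.93% peaking in the dark. Glucocorticoid-responsive genes had 7 of 19 with an unadjusted p under 0.05 (36.8%) and none called. Those of Mt1 (ZT9.87), Mt2 (ZT10.3), Sgk1 (ZT10.9), Nfkbia (ZT11.6) and Sult1a1 (ZT13.8) had fitted peaks near the end of the light phase. Nfkbia, an inhibitor of NF-kB, had an amplitude of 0.19 (adjusted p = 0.170). The cell cycle inhibitor Cdkn1a peaked at ZT23.9 (0.27, adjusted p = 0.124) and Pdk4 at ZT3.94. Glycolysis and glucose transport had 6 of 23 (26.1%), all peaking in the dark, led by Pdk2 (0.16, ZT14.8) and the glucose transporter Slc2a1 (0.24 ± 0.06, ZT13.3), with adjusted p-values of 0.1499 and 0.212. None of the 6 kept an unadjusted p under 0.05 with the step as a term. Of the 6, 5 peaked between ZT11 and ZT17, around ZT15, where that term leaves little of the curve to test. Potassium channels had 9 of 78 (11.5%), close to the share over all genes. All 9 peaked in the dark and none was called, led by Kcnk9 (0.14) and Kcnh3 (0.20).

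Housekeeping machinery lay below the background of 11.4%. Of 77 respiratory chain genes 3 (3.90%) had an unadjusted p under 0.05, of 61 ribosomal protein genes 2 (3.28%) and of 36 proteasome genes 1 (2.78%), with median amplitudes of 0.054, 0.080 and 0.057. Collagens, laminins and matrix proteases had 8 of 88 (9.09%), led by the membrane protease gene Mmp14 (0.22 ± 0.04, ZT22.7, adjusted p = 0.136). Among transmission genes, synaptic vesicle release had 4 of 23 (17.4%), glutamate receptors and scaffolds 4 of 29 (13.8%), and GABA genes 3 of 16 (18.8%), all uncalled. The histamine autoreceptor gene Hrh3 came closest of the monoamine genes (0.26 ± 0.04, ZT13.8, adjusted p = 0.0638), and Camk1g, a neuronal calcium-dependent kinase, closest of the calcium signalling genes (0.25 ± 0.04, ZT14.9, adjusted p = 0.0798).

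Markers of cell types other than cortical neurons were read for shifts in tissue makeup, beside the share of 11.4% over all genes. Oligodendrocyte genes had 3 of 13 (23.1%) with an unadjusted p under 0.05, all peaking in the light, with Opalin at ZT3.96 (amplitude 0.48 ± 0.12, adjusted p = 0.263) and Cnp at ZT7.29 (0.14). Of all 17274 genes tested, 943 had such a p and a fitted peak in the light. The mean level of the oligodendrocyte list ran from 8.42 to 8.78 over the arrays. Endothelial and pericyte genes had 5 of 13 (38.5%). Fitted peaks lay at ZT24.0 for Kdr, ZT1.93 for Tek and ZT3.81 for Vtn, and at ZT13.2 for Slco1a4 and ZT13.3 for Slc2a1. Choroid plexus genes had 2 of 7 (28.6%), Ttr with 0.32 ± 0.11 at ZT20.5 (adjusted p = 0.405) and the chloride channel gene Clic6 with 0.21 ± 0.07 at ZT2.93 (adjusted p = 0.428), so their fitted peaks did not fall together. Microglia had 1 of 12, striatal neurons 0 of 11, oligodendrocyte precursors 0 of 6 and ependymal cells 0 of 5. No gene on the lists of this paragraph was called, and the part of tissue makeup in the rhythms above was not tested.

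Asked for any difference between the 6 times, without a set shape, limma called 7 genes (0.0405%, with 7.51% at an unadjusted p under 0.05): Mir101c, Dbp, Srsy, Nr1d1, Astx5, Fabp7 and Ciart. Srsy was chosen for mention after its values were seen. Of the 7 genes 6 are among the 20 with a rhythm. The count was 4 with no filter on low values, 84 with the intensity trend and robust prior, and 1 to 4 without any 1 array.

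The last comparison asked which rhythms in PFC differed from those elsewhere, as the test of the cosine and sine of PFC minus the mean of the other 3 tissues over all 48 arrays. Of 17274 genes 20 (0.116%) differed at an adjusted p under 0.05, and 8.23% had an unadjusted p under 0.05. The count was 9 with quantile normalization, 10 with no filter on low values, 35 with the intensity trend and robust prior, and 4 against SN/VTA, 6 against STR and 13 against HAB alone. In 19 of the 20 the amplitude in PFC was above that in each of the other tissues, with Adgrg1 the exception, and 16 peaked in PFC between ZT12 and ZT17. Of these genes 8 had a called rhythm in PFC. Leaving out 1 PFC array at a time gave 10 to 20 genes (10 and 11 without an array of ZT11, 11 without the first of ZT23 or the second of ZT3, 13 without the second of ZT15, at least 16 without any other), and Sf3a2, Syvn1, Bmyc, Nr1d1, Fam189b, Wbp2 and Mir101c differed in all 12 of these fits. Sf3a2 had an amplitude of 0.29 in PFC and of 0.060 in SN/VTA, 0.10 in STR and 0.038 in HAB (adjusted p of the difference 1.47e-04). Syvn1 had 0.29 in PFC and 0.029, 0.076 and 0.11 in those tissues in that order (adjusted p = 1.85e-04).

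Bmyc, a short member of the Myc family, had 0.29 in PFC and at most 0.070 elsewhere, at a PFC peak of ZT12.6 (adjusted p of the difference 3.05e-04, of its PFC rhythm 0.0972). Wbp2, a transcriptional coactivator, had 0.24 in PFC and at most 0.073 elsewhere. Grn, the lysosomal and secreted protein progranulin, had 0.21 in PFC and at most 0.051 elsewhere. Pcsk1n, the precursor of an inhibitor of prohormone convertase, had 0.23 in PFC and at most 0.11 elsewhere. Snx12, an endosomal sorting protein, peaked instead at ZT2.87, with 0.34 in PFC and at most 0.14 elsewhere. No rhythm in PFC was called for Wbp2, Grn, Pcsk1n or Snx12, with adjusted p-values of 0.136, 0.140, 0.0972 and 0.152. Crmp1 and Fam189b also differed, with 0.26 and 0.28 in PFC and at most 0.082 and 0.086 elsewhere. So did Mir101c and Astx5, with 1.86 and 1.02 in PFC and at most 0.54 and 0.055 elsewhere. Mean levels under 5.05, the filter on low values, were found for Mir101c in STR (4.67) and for Astx5 in SN/VTA (4.96) and STR (4.89). The part of such low levels in these small amplitudes was not tested. Without 1 PFC array at a time Snx12 differed in 11 of 12 fits, Pcsk1n in 6, Crmp1 and Grn in 5 and Astx5 in 3.

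Of the genes that differed 2 are clock genes. Their fitted amplitudes were larger and their fitted peaks later in PFC, but the test takes amplitude and timing together, and neither was tested alone. Nr1d1 had 0.65 in PFC, with the peak at ZT9.97, against 0.35 at ZT8.32 in SN/VTA, 0.41 at ZT8.19 in STR and 0.46 at ZT7.54 in HAB (adjusted p = 4.11e-04). Dbp had 0.65 at ZT12.8 in PFC, against 0.44 at ZT11.1, 0.40 at ZT11.0 and 0.54 at ZT11.0 in those tissues (adjusted p = 0.0186), and it differed in 9 of the 12 fits without 1 PFC array. The other 12 genes with a called rhythm did not pass this test. Rasl11b had 0.30 in PFC, 0.11 in SN/VTA, 0.46 in STR and 0.24 in HAB, and Hspa1b 0.36 in PFC and 0.71, 0.56 and 0.38 in the same tissues, with unadjusted p-values of 0.782 and 0.389. Hspa5 had 0.21 in PFC and from 0.19 to 0.40 elsewhere (unadjusted p = 0.592). A p that misses the threshold does not show that the rhythms are alike. The step was found in the PFC arrays, 16 of the 20 genes peak between ZT12 and ZT17, and the part of the step in this comparison was not tested.

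**Figure D5:**
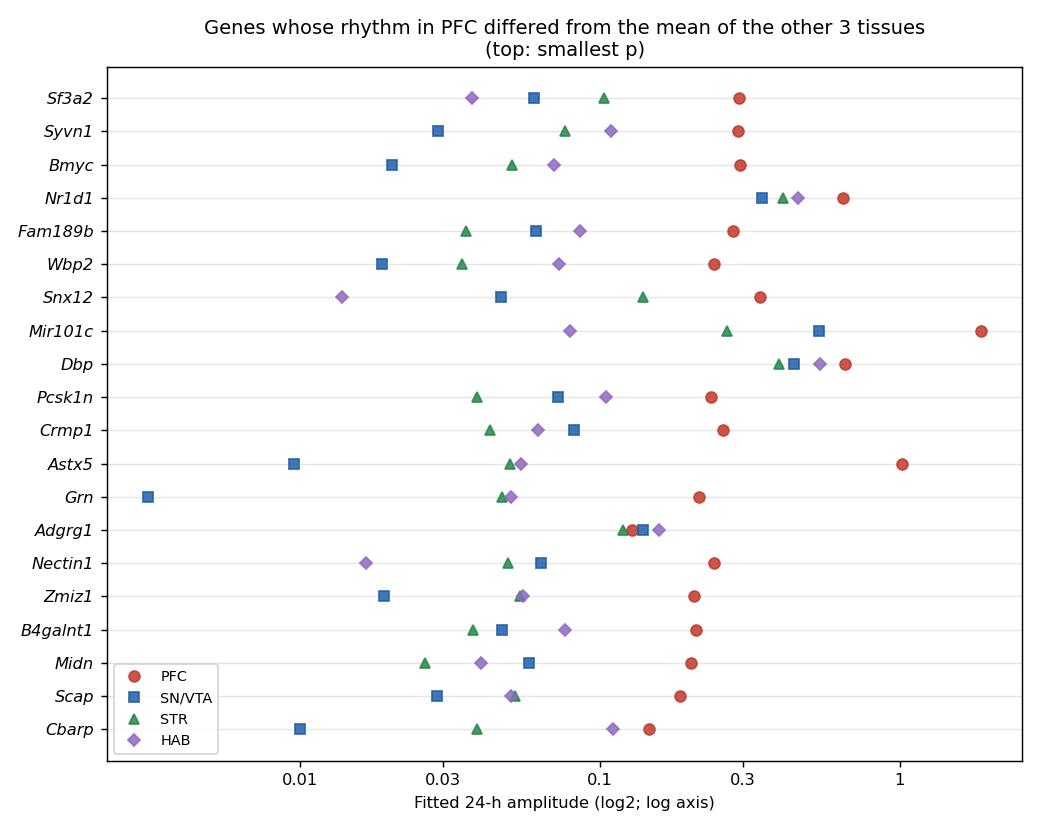
Fitted 24-h amplitude (log2, log axis) in PFC, SN/VTA, STR and HAB of the 20 genes whose rhythm in PFC differed from the mean of the other 3 tissues, with the smallest p at the top. The circles for PFC lie to the right of the other tissues in 19 of the 20 genes.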

How the data were processed

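The 12 PFC pools and the 36 pools of other tissues were each hybridised to an Affymetrix Mouse Gene 2.0 ST array, after RNeasy isolation of total RNA and labelling with biotin by the WT Pico kit, per the labels. The authors deposited 1 value per probe set and array, read here as log2 because PFC values run from 1.13 to 13.49. How background, summarisation and scaling between arrays were handled is not given in the sources used here. Detection calls were not used, so it is unknown which levels lie near background, and precision is limited by the number of arrays. Each column carries its sample's identifier and was matched by it, and 0 were not used.

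Of the 41345 probe sets, 23521 had 1 gene symbol, 1814 several and 16010 are unnamed here; 23328 matched RefSeq genes by Entrez identifier. Rows shared by several symbols entered no gene test, and the row with the highest mean stood for each of 1082 genes with several rows. Of 22180 genes, 17274 had a mean over the 48 arrays of at least 5.05, the 30th percentile, and were tested.

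Fits used limma 3.58.1 in R 4.3.3 with the data.table package (1.17.8) (8 residual degrees of freedom in PFC), and figures Python 3.11.15 with matplotlib 3.10.9. The scripts were tested on simulated data. Replicate numbers mark the 24-h cycle by the hours in the titles and entered as a block; deviations from the time means of same-numbered arrays had a mean correlation of -0.021 in 15 pairs (-0.160 to 0.128). Alternatives covered the block, scaling, filter, prior, ranks, single cycles and single arrays. The step term and the fit over all rows were added after seeing the data.

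Members and the 32 gene lists were chosen with earlier results of these data known. Genes were named by rule: per window of 6 h the 8 largest amplitudes and 4 smallest p among called genes, all clock genes, at most 4 members of a list, and the 10 smallest p of the difference from other tissues, passing over short RNAs and predicted genes. Mir101c, Srsy, Adgrg1, list members named for an unadjusted p under 0.05 and those named for a promoter motif, Fos, Hspa1a and Hspa8 were chosen after their values were seen. Promoters were RefSeq sequences of GRCm38.p6, searched on both strands for E-box, D-box, REV-ERB/ROR core, CRE, heat shock element, ER stress response element and CArG box; genome coordinates come from those sequences only.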

Additional observations from a re-analysis of the deposited data

Results flagged for a closer look

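In 13 genes the 24-h rhythm in PFC differed from the mean of the other 3 tissues, by limma's test of the difference itself over 48 arrays, among the 10 genes named by rule for this comparison and others named for their rhythm or step. The adjusted p was 1.47e-04 for Sf3a2, 1.85e-04 for Syvn1, 3.05e-04 for Bmyc, 4.11e-04 for Nr1d1 and 8.20e-04 for Fam189b. It was 0.00334 for Wbp2, 0.00833 for Snx12 and for Mir101c, and 0.0186 for Dbp. Pcsk1n, Crmp1, Astx5 and Grn shared a value of 0.0426. These 4 calls and that of Dbp were lost most often of the 13. Without 1 PFC array at a time Dbp was called in 9 of 12 fits, Pcsk1n in 6, Crmp1 and Grn in 5 and Astx5 in 3, against 11 for Snx12 and all 12 for the rest. Pcsk1n, Crmp1 and Grn were called in 4 of the 6 settings of block, scaling, filter and prior, and Dbp and Astx5 in 5. All 13 had a larger fitted amplitude in PFC than in SN/VTA, STR or HAB. The PFC rhythm itself was not called for Bmyc, Wbp2, Snx12, Pcsk1n and Grn, with adjusted p-values from 0.0972 to 0.152. In STR the mean levels of Mir101c (4.67) and Astx5 (4.89) lay under 5.05, the filter on low values. Only Snx12 of the 13 peaked in PFC outside the hours from ZT9.97 to ZT15.7, at ZT2.87.

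Mir101c and Astx5 also had a step between the arrays of ZT11 to ZT19 and those of ZT23 to ZT7, of 2.71 and 1.53 on the log2 scale. In Sf3a2, Syvn1 and Fam189b the PFC arrays of ZT11 to ZT19 also lay above all others. The lowest of them were 8.39, 8.01 and 8.53, and the highest at the other times 8.31, 7.93 and 8.35. The part of that step in the genes other than Mir101c and Astx5 was not tested in this comparison.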

How the results depend on the processing

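The count of 20 rhythmic genes was 16 with each array centred on its median or with quantile normalization, and 20 with the filter on the PFC mean. The replicate block lowered it: with no replicate block there were 31 genes, among them all 20. It was 10 with no filter on low values (more genes tested), 202 with an intensity trend and robust prior, 11 with an hour trend in place of the block, 3 with the step of ZT11 to ZT19 as a term and 41 over all rows of the table, the last 2 chosen after seeing the data. With the first or the second cycle alone, or ranks within each cycle, it was 0 (fewer arrays or coarser values). Any-shape genes were 7, against 4 with no filter and 84 with the trend prior. Departures from a cosine were 0, and 1 with the trend prior. Genes differing from the other tissues were 20, against 9 with quantile normalization, 10 with no filter, 35 with the trend prior, and 4 against SN/VTA, 6 against STR and 13 against HAB alone. Where construction does not show it, the cause was not tested.

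Leaving out single arrays gave 6 to 15 rhythmic genes, 1 to 4 of any shape, 0 to 0 departures and 10 to 20 differences. Dbp, Nr1d1, Mir101c, Fabp7 and Ciart were called in all 12 of these fits, Arntl in 9, Nr1d2 in 7, Sf3a2 in 5, Rasl11b and Hspa1b in 3 and Egr3 and Astx5 in 2. Smim3, Syvn1 and Sfrp1 were called in 1 such fit, and Fam189b, Crmp1, Per3, Usp2 and Pnma3 in 0, so these 5 need all 12 arrays. The amplitude of Astx5 turned to 0.24 on the other side of the day with the step as a term. Of the values of single genes under alternatives, 1705 kept direction and side of the threshold, 231 no longer passed, 23 newly passed and 1 turned.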

Other observations

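Limma with an intensity trend and robust prior made 202 calls (1.17% of the genes tested) at an adjusted p under 0.05. Among them were more genes of the lists described above. By peak time 25 lay between ZT23 and ZT5, 45 between ZT5 and ZT11, 100 between ZT11 and ZT17 and 32 between ZT17 and ZT23, and 10 were clock genes, with Bhlhe41, Bhlhe40 and Tef added. Among immediate early genes Egr3, Egr1 and Nptx2 passed (3 of 22), and among ER chaperones Fkbp2, Pdia6, Hspa5 and Calr (4 of 19). Fkbp2 peaked at ZT2.79, and the other ER chaperones that passed from ZT18.3 to ZT22.0. Cirbp (1 of 2 on its list), the co-chaperone gene Chordc1 (with Hspa1b 2 of 19 heat shock genes) and the cholesterol regulator Insig1 (1 of 19) passed too. The metallothionein genes Mt1 and Mt2, which bind zinc and respond to glucocorticoids, passed with Cdkn1a (3 of 19 glucocorticoid-responsive genes), with peaks at ZT9.87, ZT10.3 and ZT23.9. In signalling Hrh3 passed (1 of 22 monoamine genes), as did Camk1g and the CREB coactivator gene Crtc1 (2 of 34 cAMP and calcium genes). The glutamate receptor gene Grm2 passed (1 of 29 on its list). Splicing factors had 3 of 40, glycolysis and glucose transport 2 of 23, and endothelial and pericyte genes 2 of 13. Astrocytes had 1 of 12, cortical projection neurons 1 of 14, unfolded protein response and ER degradation 1 of 21, and potassium channels 1 of 78. Of synaptic vesicle release and GABA genes 0 of 23 and 0 of 16 passed. Of respiratory chain, ribosomal protein and proteasome genes 0 of 77, 0 of 61 and 0 of 36 passed, with 3, 2 and 1 at an unadjusted p under 0.05 in the fit without the trend. With the step as a term in that fit, Bhlhe40, Tef, Fkbp2, Hrh3 and Crtc1 had unadjusted p-values of 0.0756, 0.0858, 0.935, 0.0796 and 0.518. All other genes named in this paragraph had one under 0.05. The term leaves little to test of a curve peaking at ZT15 or ZT3.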
